A study of Mus musculus with 4 samples.

Results

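CD8-negative T cells of the brain were examined in 4 male 9-month-old mice that carried the 5XFAD amyloid transgenes, 2 of them Abi3-/- and 2 Abi3+/+. 5XFAD mice express mutant human amyloid precursor protein and presenilin 1 from a neuronal promoter and deposit amyloid in the brain. The Abi3-/- line lacks the Abi3 locus in all cells, so no genotype difference could be assigned to one cell type, and by the study's methods all 4 mice were heterozygous for the Trem2 variant of the SJL background. One library per mouse was made from the right hemisphere, without cerebellum or olfactory bulb, by cold enzymatic dissociation, myelin depletion and targeted single-cell sequencing of 397 immune genes. Abi3 was not among the genes measured, so the genotypes rest on the labels alone. The members were chosen by measured values: among cells with a read of at least 40 genes and at most 59300 reads, a member had reads of 2 or more of Cd3d, Cd3e, Cd3g, Trac and Trbc2 and no read of Cd8a, Cd8b1 or Trem2. This rule found 77 CD8-negative T cells among 13820 kept cells, of 21172 deposited. The same rule with a Cd8a or Cd8b1 read gave 205 CD8-positive T cells, and 13105 kept cells had a Trem2 read and no read of a T cell gene.

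T cells recognise antigen through a receptor made of alpha and beta or of gamma and delta chains, which signals through the CD3 proteins. Cytotoxic T cells use CD8 as co-receptor and kill infected or malignant cells with granzymes and perforin. Helper T cells use CD4 and act on other cells through cytokines and surface ligands, and regulatory T cells, most of which carry CD4 and the transcription factor FOXP3, restrain immune responses. Innate-like T cells, such as invariant natural killer T cells and many gamma delta T cells, respond quickly without prior priming and often lack both co-receptors. T cells are few in the healthy brain and are known to gather in brains with amyloid.

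The T cell identity was checked on genes that the rule did not use. Thy1, a surface glycoprotein of mouse T cells, was read in all 77 members, and Lck, the kinase that starts receptor signalling, in 75 of 77. Lck was read in 0.60% of the Trem2-positive cells, and Thy1 in 2.95%. No class of natural killer cells was defined, so this check does not tell T cells from them. Of the genes used by the rule, all 5 were read in 63 members, 4 in 10, 3 in 3 and 2 in 1. Trbc2 was read in all 77 and Trac in 71. Just outside the rule stood 18 cells with exactly 1 of the 5 genes and no Cd8a, Cd8b1 or Trem2 read; they held a median of 55 genes and 7375.5 reads, and Thy1 was read in 11, Lat, an adaptor of receptor signalling that 68 members had, in 8 and Lck in 3 of them. Of the CD8 genes that the rule itself used, 199 of 205 CD8-positive cells had reads of both, and the lowest summed Cd8a and Cd8b1 reads in any of them was 32, with a median of 698.

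Pooled over mice, the members' median was 13302 reads and 75 genes per cell, against 17831 reads and 83 genes in CD8-positive and 21378 reads and 79 genes in Trem2-positive cells. When each T cell was thinned to 9548 reads, 57 members and 196 CD8-positive cells were deep enough to stay. By mouse the members' median was 15241.5 and 10413.5 reads in Abi3-/- mice 1 and 2, and 16357.5 and 13302 in Abi3+/+ mice 1 and 2, and that of CD8-positive cells was 18198, 17345, 16261 and 20144 in the same order. The members were thus shallower in 3 of 4 mice and not in Abi3+/+ mouse 1. The 4 libraries held 87117727 to 150756771 reads. The values are reads corrected for sequencing errors, not molecules, so intervals and floors cover counting error only. Between 17 and 42 cell barcodes were shared by each pair of libraries, none of them a member's. One library stood apart before any comparison: Abi3-/- mouse 2 had no read of Gzmk, which encodes granzyme K, in any of its 6476 deposited cells, while the others had it in 43 to 53 cells. It also had Qpct, which encodes glutaminyl cyclase, in 2102 kept cells, against 96 to 100 in the others. Reads of other lineages were few. The microglial list of 9 genes summed to between 138 and 192 reads per 10000 panel reads in the members and to between 138 and 177 in the CD8-positive cells, against 3869 to 4473 in Trem2-positive cells, and most of the members' sum was Ctsd, a lysosomal protease. The microglial genes Cx3cr1 and Adgre1 were at 0 in the members, but the complement genes C1qa and C1qb were not. After thinning, C1qb was read in 7 of 57 members and 6 of 196 CD8-positive cells, and C1qa in 1 and 14. Against CD8-positive cells C1qb had a log2 fold change of 3.82 ± 2.19 (SE, edgeR adjusted p = 0.432). Genes of monocytes, neutrophils and B cells had a median of 0 genes read per member in all mice. Their lists summed to 0.918 to 3.43, 0 to 11.8 and 3.19 to 22.3 reads per 10000 in the members, and to 0 to 1.43, 0 to 4.30 and 3.98 to 12.6 in the CD8-positive cells, and their part in the results was not tested.

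CD8-negative T cells were a minority of the T cells in every mouse. There were 22 and 20 in Abi3-/- mice 1 and 2, and 10 and 25 in Abi3+/+ mice 1 and 2, beside 68, 43, 51 and 43 CD8-positive T cells in the same order. They made up 24.4%, 31.7%, 16.4% and 36.8% of the T cells. The Abi3+/+ mice gave both the lowest and the highest share, so the genotypes overlapped. The share of T cells was 28.1% ± 5.16 (SD, n = 2) in Abi3-/- and 26.6% ± 14.4 (SD, n = 2) in Abi3+/+ mice, a difference of 1.52 percentage points (exact permutation test over mice, 2-sided p = 1). As a share of all kept cells the members were 0.948%, 0.445%, 0.263% and 0.780%, or 0.696% ± 0.356 in Abi3-/- against 0.522% ± 0.365 in Abi3+/+ mice (SD, n = 2 each, exact permutation p = 0.667). With 2 mice against 2, no p under 0.33 can be reached, and both differences turned negative when single mice were left out. With each T cell thinned to an equal number of reads, an alternative chosen after seeing the data, the shares of T cells were 21.4%, 21.2%, 16.4% and 30.6%, and the difference was -2.21 percentage points.

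**Figure D1:**
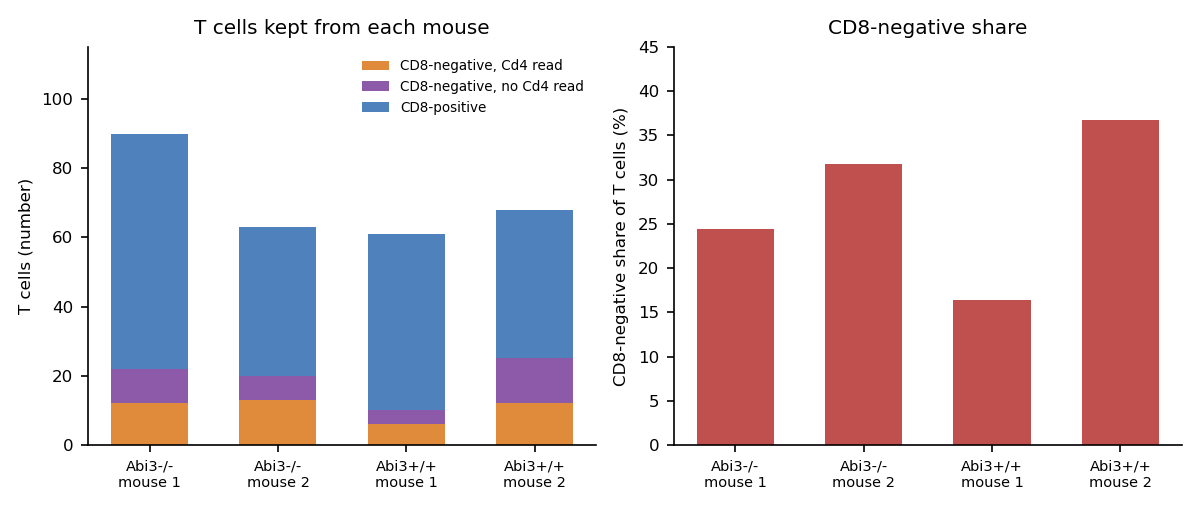
T cells kept from each of the 4 mice. Left, number of cells (y axis), stacked as CD8-negative cells with a Cd4 read, CD8-negative cells without one, and CD8-positive cells. Right, CD8-negative share of T cells in percent, which ran from 16.4% to 36.8% with both extremes in Abi3+/+ mice.

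Cd4, which encodes the co-receptor of helper T cells, was read in 43 of the 77 members. It was read in 12 of 22, 13 of 20, 6 of 10 and 12 of 25 members of the mice in the order above, or 54.5%, 65%, 60% and 48%. No mouse stood apart. None of the 205 CD8-positive cells had a Cd4 read, where a count of 0 allows a share of up to 1.46%, so the share was at least 38.2-fold higher in the members. Cd4 was read in 0.15% of Trem2-positive cells, which were sequenced more deeply. The mean share over mice was 56.9% ± 7.30 (SD, n = 4), above the CD8-positive cells in 4 of 4 mice (exact sign-flip test, 2-sided p = 0.13, the smallest that 4 mice allow). Members with a Cd4 read held a median of 122 reads of it.

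Foxp3 was read in 4 members, 3 in Abi3-/- mouse 2 and 1 in Abi3+/+ mouse 1. No CD8-positive cell had a Foxp3 read, a share at least 3.55-fold lower pooled over mice, and 0.01% of Trem2-positive cells had one. This bound did not hold without Abi3-/- mouse 2, where 1 member with Foxp3 was left. The mean difference in share was 6.25 percentage points ± 7.5 (SD, n = 4, exact sign-flip p = 0.5), higher in 2 of 4 mice, so it was within the spread between mice. All 4 cells also had reads of Ctla4, Tnfrsf4, Tnfrsf18 and Il2rb, which encode an inhibitory receptor, the costimulatory receptors OX40 and GITR, and a chain of the interleukin 2 receptor. In 3 of the 4, Il2ra and likewise Ikzf2, which encodes the transcription factor Helios, were read. Cd4 itself was read in 2 of the 4 and Nkg7, a granule gene of cytotoxic cells, in 0.

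Trdc, the constant region of the delta chain, was read in 4 members and in 4 CD8-positive cells. The members with it numbered 1, 1, 2 and 0 by mouse, and the CD8-positive cells 3, 0, 1 and 0. The difference was 5.79 percentage points ± 8.49 (SD, n = 4, exact sign-flip p = 0.25), higher in the members in 3 of 4 mice. Trac, the constant region of the alpha chain, was read in 2 of these 4 members and in 69 of the other 73. The 2 members without it had the highest Trdc counts, 355 and 328 reads, and no Cd4 or Trbc1 read, but did have Trbc2, as every member did.

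Zbtb16, which encodes the innate-like T cell factor PLZF, was read in 11 members. These were 2, 0, 1 and 8 by mouse, so 8 of the 11 came from Abi3+/+ mouse 2. It was read in 1 CD8-positive cell and in 0.71% of Trem2-positive cells. The share was higher in the members by 12.4 percentage points ± 13.7 (SD, n = 4, exact sign-flip p = 0.25) in 3 of 4 mice, less than the spread between mice, and by 5.87 without Abi3+/+ mouse 2. All 11 cells had a Trac read, 10 had Cxcr6, 9 Cxcr3, 9 Il2rb, 8 Nkg7, 7 Tbx21 and 4 Cd4. Of the other 66 members, 60 had Trac, 47 Cxcr6, 54 Cxcr3, 49 Il2rb, 45 Nkg7, 32 Tbx21 and 39 Cd4. The shares were thus equal for Cxcr3 (81.8%) and close for Nkg7 (72.7% against 68.2%). Ctla4 was read in 0 of the 11, as was Itga4, an integrin chain used in entry to the brain. They were read in 18 and 31 of the other 66.

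**Figure D2:**
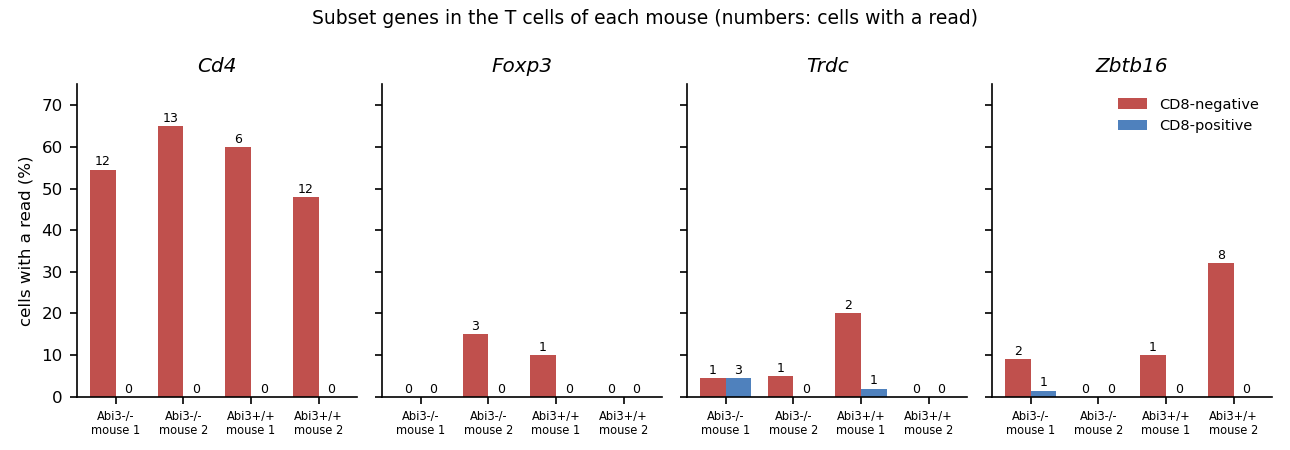
Percent of cells with a read (y axis) of Cd4, Foxp3, Trdc and Zbtb16 in the CD8-negative and CD8-positive T cells of each mouse, with the number of cells above each bar. Cd4 was high in the members of every mouse and at 0 in CD8-positive cells, whereas 8 of the 11 members with Zbtb16 were in Abi3+/+ mouse 2.

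By these genes, 36 members had Cd4 alone, 4 Cd4 with Zbtb16, 1 Cd4 with Trdc, 1 Cd4 with Foxp3 and 1 Cd4 with Foxp3 and Trdc. Without a Cd4 read, 7 had Zbtb16, 2 had Trdc and 2 had Foxp3. The other 23 had none of these 4 genes. Of those 23, Nkg7 was read in 21, Ctsw, a cathepsin of killer lymphocytes, in 20, Cxcr3 in 18, Cxcr6 in 18, Ccl5 in 16, Klrk1, which encodes the activating receptor NKG2D, in 15 and Tbx21 in 14. Trac was read in 19, while Gzmk was read in 1 and Itga4 in 3. Nkg7, Ctsw, Cxcr3, Cxcr6 and Ccl5 were read in 69.6% to 91.3% of the 23, not thinned. In CD8-positive cells after thinning they were read in 90.8% to 100%, and each was more frequent there. Klrk1 and Tbx21 were read in 65.2% and 60.9% of the 23, and in 26.0% and 41.8% of those CD8-positive cells. Genes typical of natural killer cells (Fcer1g, Gzma and the Klra receptors, 9 genes with near-identical copies among the Klra family) were read in 10 members, 5 in Abi3-/- mouse 1 and 5 in Abi3+/+ mouse 2, and 2 of these cells also had Cd4. They were read in 21 of 205 CD8-positive cells, a share close to that of 10 of 77 members. Fcer1g was read in 7 members, 4 of them with Klrk1 and 3 with Klra7. In 1 cell of Abi3-/- mouse 1 and 1 of Abi3+/+ mouse 2 it had 15 and 12 reads, without Gzma, Klra1, Klra7 or Klrk1. Trac was read in 4 of these 7 and in 67 of the other 70 members. Trem2-positive cells as a source of Fcer1g reads were not tested. Without all cells that had a read of any of these natural killer genes, an alternative chosen after seeing the data, 9 genes passed the comparison that follows, 7 of them among its 8, with Tnfrsf9 lost.

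Receptors of natural killer type and Ctla4 were read in different members. Klrk1 was read in 22 members, all of which had Nkg7 and 15 of which had Klrc1, and Ctla4 and Itga4 were read in 0 of these 22. Ctla4 was read in 18 members, of which 15 had Cd4, 13 Itga4 and 11 Tnfrsf4, and 0 had Klrk1 or Klrc1. These counts are over cells of 4 mice and are given as a description.

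Reads summed per mouse and class were then compared between members and CD8-positive T cells of the same 4 mice. The question was which genes beyond those of the rule differ between T cells with and without CD8. Members had higher levels of Cd4, of the costimulatory receptor genes Icos and Tnfrsf4, and of Tnfrsf9, which encodes 4-1BB. They had lower levels of Ccl5, a chemokine of effector T cells, of the cytotoxic granule gene Nkg7, of Cst7, which encodes cystatin F, an inhibitor of the proteases that activate granzymes, and of Eomes, a transcription factor of effector and memory CD8 T cells. These 8 genes, 3.54% of the 226 tested, passed the threshold of adjusted p under 0.05 in edgeR's quasi-likelihood test with the mouse as a block. At an unadjusted p under 0.05 there were 37.

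Levels below are reads per 10000 panel reads of the class, in Abi3-/- mice 1 and 2 and then Abi3+/+ mice 1 and 2. Cd4 was at 77.1, 60.9, 34.7 and 33.8 in the members and at 0 in the CD8-positive cells of all 4 mice (adjusted p = 0.0155). Icos was at 26.5, 25.6, 34.2 and 17.4 in the members and at 4.01, 3.15, 6.86 and 3.13 in CD8-positive cells. All 4 member values lay above all 4 others, with a log2 fold change of 2.32 ± 0.38 (SE, adjusted p = 0.0274). It was read in 28 members, 17 with and 11 without Cd4, and in 31 CD8-positive cells.

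Tnfrsf4 was at 11.7, 83.2, 17.5 and 7.31 in the members and at 1.73, 2.84, 1.30 and 0.989 in CD8-positive cells, and its log2 fold change was 3.24 ± 0.55 (SE, adjusted p = 0.0274). The highest value was that of Abi3-/- mouse 2, which held 3 of the 4 cells with Foxp3. Tnfrsf4 was read in all 4 of those cells and in 11 of the other 73 members. The part of the Foxp3 cells in the difference was not tested. Tnfrsf9 was at 5.12, 45.01, 4.14 and 6.54 against 0.0577, 0, 0 and 0 (adjusted p = 0.0412). Its groups also did not overlap, yet only 8 members and 1 CD8-positive cell carried it.

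Ccl5 was at 484, 142, 252 and 137 in the members and at 1033, 819, 974 and 1134 in CD8-positive cells, lower in all 4 mice by 2.47 ± 0.37 on the log2 scale (SE, log2 fold change of -2.47, adjusted p = 0.0242). Nkg7 was at 238, 98.0, 87.9 and 285 against 417, 430, 377 and 476, with a log2 fold change of -1.76 ± 0.29 (SE, adjusted p = 0.0274). Nkg7 was read in 68.8% of members (95% Clopper-Pearson interval 57.3 to 78.9) and in 99.0% of CD8-positive cells (96.5 to 99.9), and in 0.05% of Trem2-positive cells. Cst7 was at 6.33, 14.04, 13.1 and 17.1 against 37.4, 39.8, 47.0 and 61.9, a log2 fold change of -2.26 ± 0.28 (SE, adjusted p = 0.0155). Microglia also express Cst7, and it was read in 34.3% of Trem2-positive cells, above the 24.7% of members. Eomes was at 0, 0, 0 and 0.373 against 1.95, 3.63, 15.9 and 35.4, being read in 1 member and 56 CD8-positive cells (adjusted p = 0.0201).

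**Figure D3:**
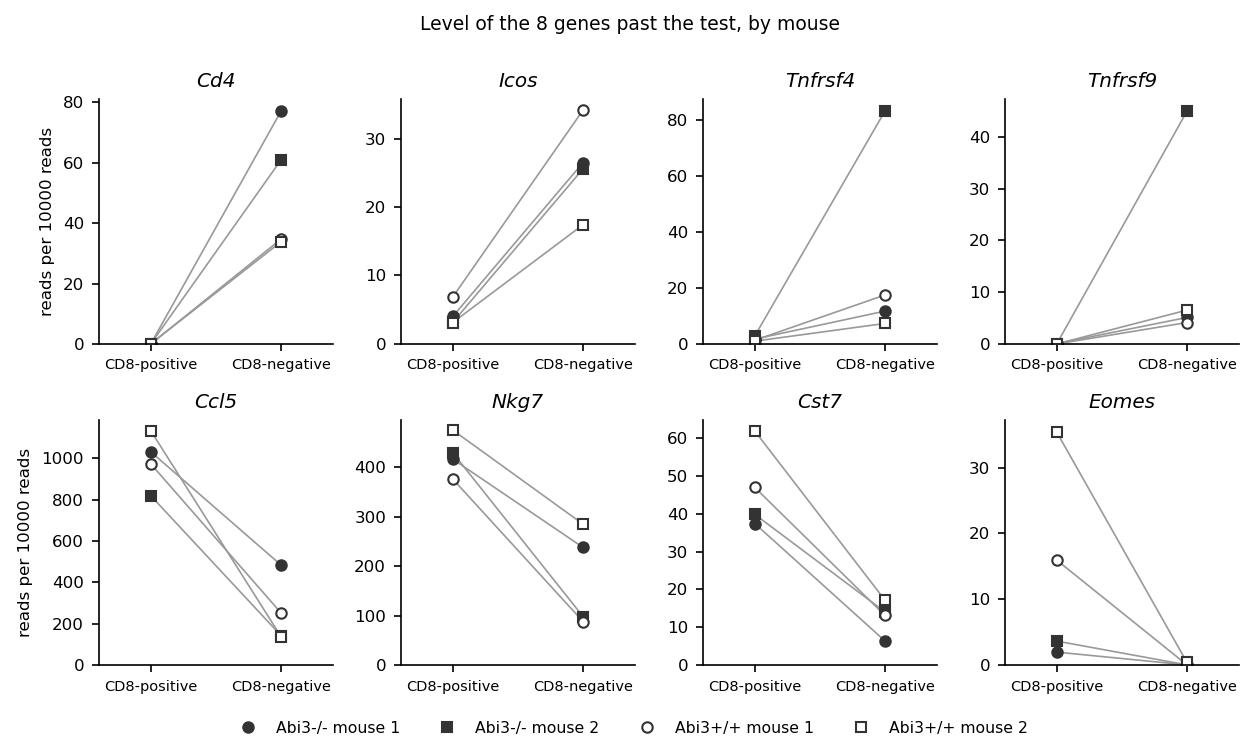
Level of the 8 genes past the test, in reads per 10000 panel reads (y axis, linear, from 0), in CD8-positive and CD8-negative T cells. Each line joins both classes of 1 mouse, filled for Abi3-/- and open for Abi3+/+. For every one of the 8 genes the 4 values of one class lay apart from the 4 of the other.

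The number of genes past the threshold depended on the mice. It was 8, 0, 2 and 1 when Abi3-/- mouse 1, Abi3-/- mouse 2, Abi3+/+ mouse 1 and Abi3+/+ mouse 2 was left out, with 31, 22, 32 and 33 genes at an unadjusted p under 0.05. Cd4 stayed past the threshold in 3 of these 4 fits, Icos in 0 and the other 6 genes in 1 each. Nkg7 lost its call without TMM scaling and, with Eomes, without the mouse as a block. Without cells with a read of Cx3cr1, C1qa or C1qb, Icos lost its call and Tnfrsf9 was no longer tested. With no limit on Trem2 reads, which added cells to both classes, Eomes, Icos, Tnfrsf4 and Tnfrsf9 lost theirs. With each T cell thinned to an equal number of reads, the same 8 genes passed. DESeq2 called 38 genes, 16.8% of those tested, 14 higher and 24 lower, with all 8 among them. Limma, run on per-class means of log-normalized values, called 20, with 5 of the 8 among them and Eomes, Tnfrsf4 and Tnfrsf9 lost. Over all 226 genes, the 4 member values lay above the 4 CD8-positive values in 24 genes (10.6%) and below them in 14 (6.19%).

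Calls and adjusted p-values for the lists are those of edgeR unless another tool is named. Over all 226 genes tested, edgeR called 4 higher and 4 lower, and DESeq2 14 and 24. The helper list rose in 2 of its 12 tested members (Cd4 and Icos), fell in 0, and 10 did not pass. Its median log2 fold change was 0.76, beside -0.12 over all genes tested. Without TMM scaling the median of all genes moved by 0.289, to 0.17, so log2 fold changes within 0.289 of 0 carry no direction here. Il7r, the interleukin 7 receptor, had a log2 fold change of 0.74 ± 0.30 (SE, adjusted p = 0.302). Tbx21, the factor of interferon γ producing helper and cytotoxic cells, was at 28.3, 13.6, 19.7 and 22.7 in the members and at 11.7, 16.4, 22.9 and 12.7 in CD8-positive cells, and the groups overlapped. It was read in 39 members and Gata3, the factor of type 2 helper cells, in 12. Ifng was read in 8 members. Il2 was read in 2 members and Il21 in 1, and Il4, Il5, Il13, Il17a, Il17f and Il22 in 0 of 77 members and 0 of 205 CD8-positive cells. By counting error alone this allows shares of up to 3.90% and 1.46% of cells with a read, and it does not bound cells whose reads were too few to be kept or captured.

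The regulatory list had 1 of 9 tested genes higher (Tnfrsf4), beside 4 of all 226, and 0 lower, with a median of 1.81. Tnfrsf18 had a log2 fold change of 1.43 ± 0.44 (SE, edgeR adjusted p = 0.180, DESeq2 0.0242, limma 0.0177). That of Ctla4 was 1.81 ± 1.12 (SE, edgeR adjusted p = 0.472, DESeq2 0.141, limma 0.462). The value of Ctla4, which is also the list's median, turned to -0.080 without cells with a read of Cx3cr1, C1qa or C1qb and ran from 0.89 to 2.82 with a mouse left out. Ctla4 was at 93.2 in the members of Abi3-/- mouse 2 and at 2.90 to 23.8 in those of the other mice. Ikzf2 was read in 14 members and in 1 CD8-positive cell, at 7.11, 14.04, 4.47 and 8.55 against 0, 0.257, 0 and 0, and missed the threshold (adjusted p = 0.0742, DESeq2 4.95e-08). Of the 14 cells with Ikzf2, 3 had Foxp3 and 7 had Ctla4. Il10 and Lrrc32 were read in 0 cells of either class. The checkpoint list, which shares Tnfrsf4, Tnfrsf18 and Ctla4 with the regulatory one, had 2 of 9 genes higher (Tnfrsf9 and Tnfrsf4) and 0 lower, with a median of 1.17. Pdcd1, which encodes PD-1, was read in 10 members, 9 of them with Cd4.

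The cytotoxic list had 4 of 16 tested genes lower (Nkg7, Ccl5, Cst7 and Eomes) and 0 higher, with a median of -2.01. Gzmk was read in 6 members and 126 CD8-positive cells, with levels of 0.842, 0, 19.2 and 2.78 against 45.3, 0, 90.7 and 91.7. It missed the threshold (adjusted p = 0.0689, DESeq2 4.85e-05) in a comparison to which Abi3-/- mouse 2, with no Gzmk read in any cell, could add nothing. Gzmb was read in 8 members and 61 CD8-positive cells (adjusted p = 0.308, DESeq2 0.00738). Prf1, the pore-forming protein, was read in 1 and 21 (adjusted p = 0.335, DESeq2 0.0496), and Ccl4 in 2 and 44 (adjusted p = 0.235, DESeq2 0.000956). Klrk1 had a log2 fold change of 0.63 ± 0.49 (SE, adjusted p = 0.612), and that of Runx3, 0.26 ± 0.47 (SE, adjusted p = 0.879), carried no direction. Xcl1, a chemokine that attracts cross-presenting dendritic cells, was at 74.4, 49.3, 48.3 and 37.9 against 80.6, 137, 91.7 and 78.6. Its log2 fold change was -1.21 ± 0.26 (SE, edgeR adjusted p = 0.0689, DESeq2 0.00143, limma 0.00691).

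The innate-like list (6 tested) and the natural killer receptor list (5 tested) had 0 genes called by edgeR in either direction, with medians of -0.07 and 0.17. DESeq2 called 1 gene higher and 2 lower in the innate-like list, and 1 lower in the natural killer receptor list. Cd160, which both lists hold, was read in 2 members against 79 CD8-positive cells (edgeR adjusted p = 0.148, DESeq2 1.22e-05, limma 0.00216). Zbtb16 had levels of 3.56, 0, 2.29 and 19.4 in the members (edgeR adjusted p = 0.298, DESeq2 0.0267, limma 0.236). The residency and chemokine receptor list had 0 of 11 called by edgeR, 3 lower by DESeq2, and a median of -0.10. Cxcr6 and Cxcr3, receptors of T cells in inflamed tissue, overlapped between the classes. Cxcr6 was at 153, 117, 196 and 176 in the members and at 172, 153, 136 and 94.2 in CD8-positive cells, and Cxcr3 at 95.9, 94.6, 123 and 175 against 93.6, 114, 86.1 and 90.3. They were read in 57 and 63 members. Itgae, the integrin chain CD103 of resident cells, was read in 5 members and 75 CD8-positive cells (edgeR adjusted p = 0.310, DESeq2 0.0228, limma 0.00727). Itga4 had a log2 fold change of -1.28 ± 0.31 (SE, edgeR adjusted p = 0.0983, DESeq2 0.00463, limma 0.0177).

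The naive and central memory list had 0 of 9 called by edgeR, 0 by DESeq2, and a median of -0.28. Ccr7, a receptor for entry to lymph nodes, was read in 6 members. Cd27 was read in 22 members and 130 CD8-positive cells, lower in all 4 mice (edgeR adjusted p = 0.207, DESeq2 0.0561), and limma called it (0.00727). The receptor signalling list had 0 of 16 called by edgeR and a median of 0.003, while DESeq2 called 1 higher and 2 lower. Cd5, a brake on receptor signalling, was at 41.9, 38.7, 50.8 and 46.2 in the members and 20.7, 15.2, 26.3 and 18.1 in CD8-positive cells. Its values lay apart in all mice, with a log2 fold change of 0.85 ± 0.22 (SE, edgeR adjusted p = 0.121, DESeq2 0.00531, limma 0.0254). The cell cycle list had 0 of 9 called by edgeR, 2 lower by DESeq2, and a median of -0.61. Mki67 was read in 2 members.

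**Figure D4:**
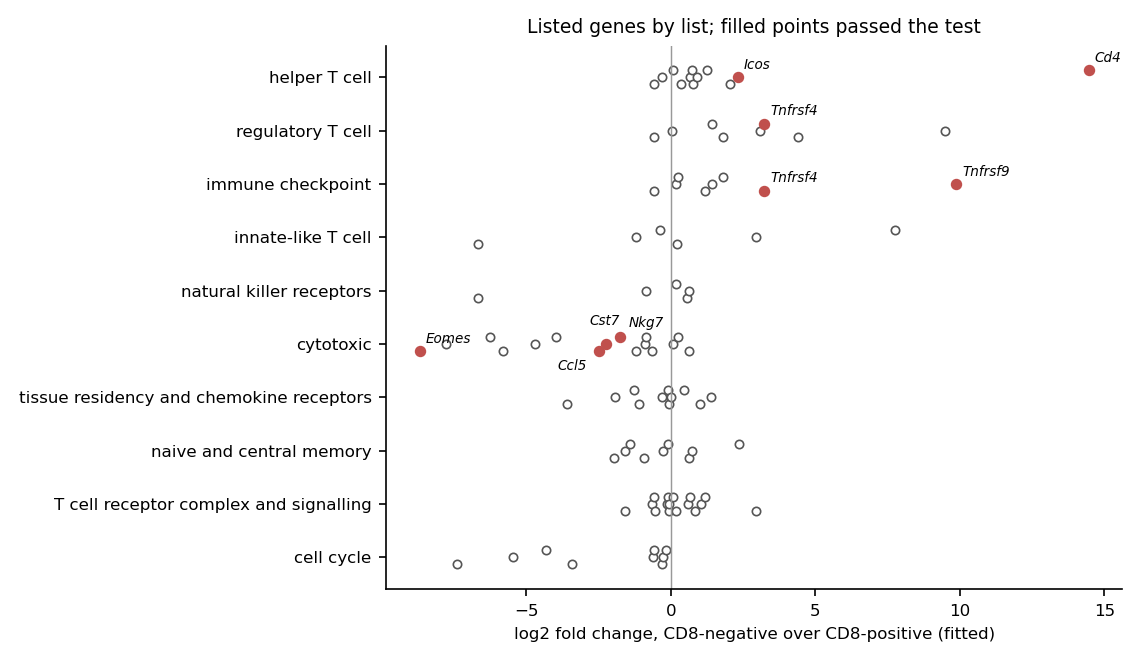
Log2 fold change of CD8-negative against CD8-positive T cells (x axis) for the tested genes of each list (rows). Each point is a gene, and named filled points passed edgeR's threshold. The 4 called cytotoxic genes lie to the left of 0, and the called helper, regulatory and checkpoint genes to the right.

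Members with and without a Cd4 read had medians of 13680 and 12295 reads and 76 and 74 genes. The gap went both ways within mice: those with Cd4 were deeper in Abi3-/- mice 1 (15649 against 11418 reads) and 2 (12913 against 9543) and shallower in Abi3+/+ mice 1 (15960 against 16405) and 2 (12554 against 14148). In a fit of 3 classes, with Cd4 itself left out, edgeR called 0 of 241 genes (0%) between the 43 members with and the 34 without Cd4, with 14 at an unadjusted p under 0.05. DESeq2 called 19 and limma 6. The 4 cells without Cd4 of Abi3+/+ mouse 1 were too few for a sum and were left out. Cd5 had the lowest p, with a log2 fold change of 1.75 ± 0.31 (SE, adjusted p = 0.121, DESeq2 1.74e-07, limma 0.00843), and was read in 76.7% of members with Cd4, 26.5% of those without and 41.0% of CD8-positive cells. At an equal number of reads these shares were 79.4%, 34.8% and 41.8%.

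Shares of cells with a read lay far apart for a few other genes, given here over cells as a description. Itga4 was read in 60.5% of members with Cd4, 14.7% without and 77.1% of CD8-positive cells, and in 67.6%, 17.4% and 78.1% after thinning. Klrk1 was read in 7.0%, 55.9% and 24.9%, and Klrc1, an inhibitory partner chain of the natural killer receptors, in 9.3%, 41.2% and 36.1%. Txk, a kinase of T cells, was read in 7.0%, 41.2% and 19.02%. Klrk1 reached an adjusted p of 0.573 in edgeR, 0.148 in DESeq2 and 0.00843 in limma.

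Members with neither Cd4 nor CD8 reads also differed from CD8-positive cells in the shares of several genes, given over cells as a description. The shares include 4 such members of Abi3+/+ mouse 1, which had no sum in the fit. In the fit edgeR called 0 of 241 genes between these members and CD8-positive cells (0%), with 28 at an unadjusted p under 0.05, DESeq2 21 and limma 5. Cst7 was read in 26.5% of them and in 72.2% of CD8-positive cells (log2 fold change -2.41 ± 0.59 SE, adjusted p = 0.109), and Itga4 had a log2 fold change of -2.05 ± 0.48 (SE, adjusted p = 0.109). Eomes was read in 2.9% against 27.3%, Cd160 in 5.9% against 38.5% and Gzmk in 2.9% against 61.5%. The Gzmk shares include Abi3-/- mouse 2, which had no Gzmk read in any cell. In the other direction Tnfrsf25, a death receptor family member, was read in 26.5% against 1.0%, and Ikzf2 in 17.6% against 0.5%. Both were about as frequent in members with Cd4, at 23.3% and 18.6%. Trem2-positive cells had a Tnfrsf25 read in 0.37% and an Ikzf2 read in 1.92%.

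Between members with Cd4 and CD8-positive cells, edgeR called 1 of 241 genes (0.415%), with 27 at an unadjusted p under 0.05, DESeq2 32 and limma 18. The gene was Nkg7, with a log2 fold change of -1.94 ± 0.27 (SE, adjusted p = 0.0230). It was read in 58.1% of members with Cd4, in 82.4% of those without and in 99.0% of CD8-positive cells. Nkg7 did not pass without Abi3-/- mouse 1, without Abi3-/- mouse 2 or without Abi3+/+ mouse 1 (0 genes called in each), nor without TMM scaling (lowest adjusted p of edgeR 0.0525) or with no cell filter (0.0502), and 2 genes passed without Abi3+/+ mouse 2.

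**Figure D5:**
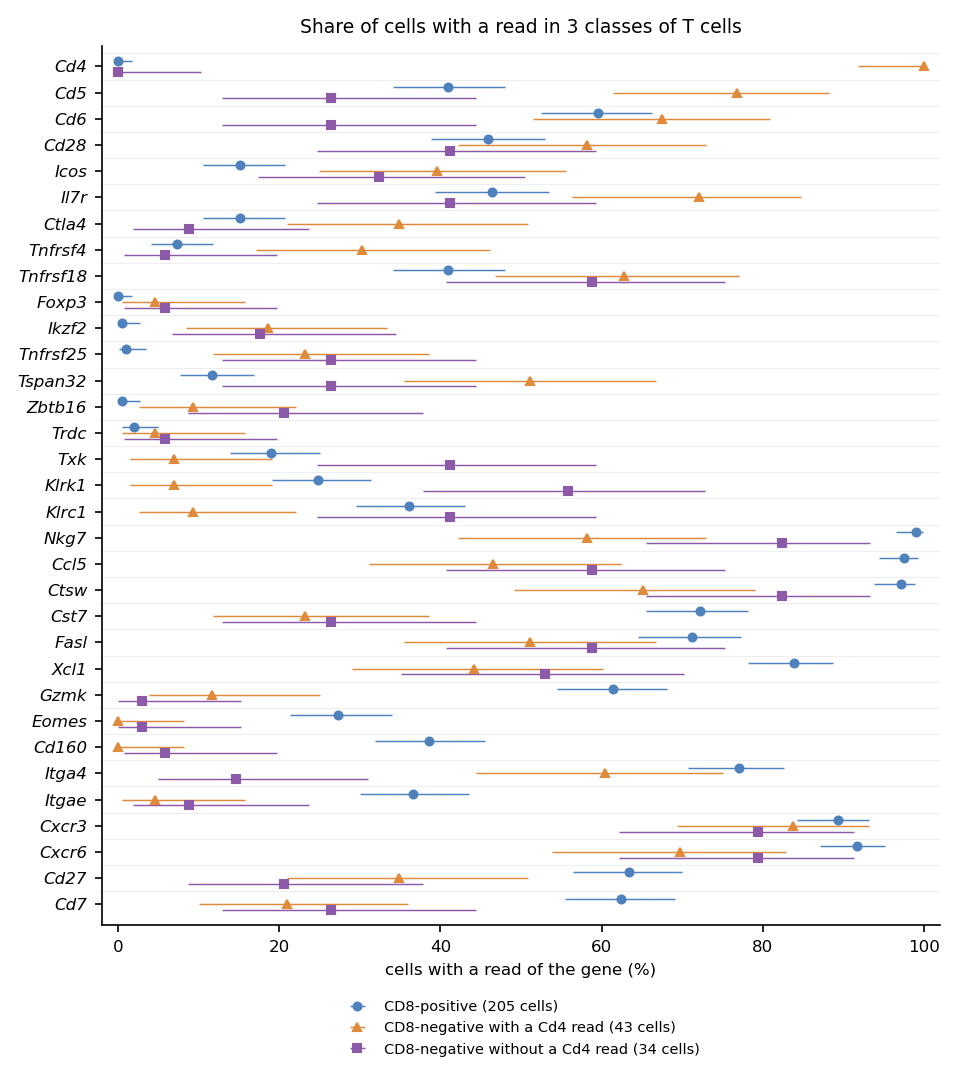
Percent of cells with a read (x axis) of selected genes in CD8-positive cells, members with a Cd4 read and members without, with 95% Clopper-Pearson intervals for counting error. Klrk1 and Txk had their highest share in members without Cd4, at 55.9% and 41.2%, and Cd5 in members with Cd4, at 76.7%.

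Loss of Abi3 was compared within the members. edgeR called 0 of 227 genes (0%) between the 2 Abi3-/- and the 2 Abi3+/+ mice, with 8 at an unadjusted p under 0.05 and a lowest adjusted p of 0.819. DESeq2 called 1, Cd247, the zeta chain of the receptor complex, and limma 0. Cd247 was at 76.2 and 89.0 in Abi3-/- and at 26.6 and 26.9 in Abi3+/+ members (DESeq2 adjusted p = 0.00395). In CD8-positive cells it was at 34.4 and 29.8 against 30.5 and 39.0. A difference in the class contrast between genotypes was called for 0 of 226 genes (0%) by edgeR, with 7 at an unadjusted p under 0.05, for 0 by DESeq2 and for 0 by limma. The sums held as few as 10 cells. The labels do not say whether the mice were littermates.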

How the data were processed

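Libraries of 4 brains, 1 per mouse, were deposited as tables of reads per cell. By the study's methods, the authors ran the BD Rhapsody targeted pipeline with default settings on Illumina reads and downloaded counts adjusted by distribution-based error correction. The submitters' notes name mm10, and the pipeline version is not given in the sources used here. The deposited counts are whole reads, not molecules, without normalization. The cell filter was at least 40 genes with a read and at most 59300 reads, and no doublet caller was run beside this upper limit.

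Counts were summed per mouse and class and tested with edgeR 4.0.16 (filterByExpr, TMM, quasi-likelihood test, Benjamini-Hochberg over all genes tested, threshold 0.05). The 8 genes of the rule were left out. Both classes came from the same animals, so the mouse was a block; a sum of under 5 cells was left out. DESeq2 1.42.0 and limma 3.58.1 (log2 scale, pseudocount 1) were alternatives, with thinning to 9548 reads, other cell rules and each mouse left out. The share of cells with Zbtb16 was tested by itself after the data were seen, and some results are not reported here. The scripts were tested on simulated data. Members and gene lists were chosen with earlier results of these data known. All genes of the lists could be named, and beyond them up to 15 called genes per direction with the same sign in all mice; a few others were chosen after their values were seen (Fcer1g, Il2rb, Qpct, Tnfrsf25, Tspan32). The p-values rest on variation over mice, not cells. Between classes, with the mouse as a block, that is how the class difference varied over the 4 mice. Members without Cd4 had no sum in Abi3+/+ mouse 1. Between genotypes it is the spread of 2 mice against 2.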

Additional observations from a re-analysis of the deposited data

Results flagged for a closer look

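Cd4 was read in 5 of the 9 T cells with a Trem2 read and no Cd8a or Cd8b1 read. This was noted because the Trem2 read left these cells out of the members and so out of every main comparison. They entered the alternative with no limit on Trem2 reads. There were 25 T cells with a Trem2 read in all, of which 16 had CD8 reads, and 0 of those 16 had a Cd4 read. Foxp3 was read in 1 of the 9. Their part in the results was not tested by itself, since lifting the limit on Trem2 reads added cells to both classes.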

How the results depend on the processing

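The Abi3-/- minus Abi3+/+ difference in members ran from -0.0841 to 0.433 percentage points of kept cells and from -8.67 to 11.7 of T cells when 1 mouse was left out, turning negative without Abi3-/- mouse 1 (-0.0773) or Abi3+/+ mouse 1 for the former, and without Abi3-/- mouse 2 (-2.13) or Abi3+/+ mouse 1 for the latter, which was -2.21 with T cells thinned to equal reads. Against CD8-positive cells the members' 8 genes became 38 with DESeq2, 20 with limma (5 of the 8 kept), 5 with no limit on Trem2 reads (4 kept, with Eomes, Icos, Tnfrsf4 and Tnfrsf9 lost), 6 without reads of Trem2, Cx3cr1, C1qa or C1qb (Icos lost and Tnfrsf9 not tested), 7 without TMM (Nkg7 lost), and 0 to 8 with a mouse left out. Members without Cd4 against CD8-positive cells gave 0 genes, but 21 with DESeq2, 5 with limma, 1 with no cell filter and 4 with no limit on Trem2 reads. Members with Cd4 gave 1, but 32 with DESeq2, 18 with limma, 3 with no limit on Trem2 reads, 2 without cells with natural killer genes, 0 with no cell filter, 0 without TMM, and 0 to 2 with a mouse left out. Members with against without Cd4 gave 0, but 19 with DESeq2, 6 with limma, 1 with no cell filter and 1 with no limit on Trem2 reads. The genotype comparison gave 1 with DESeq2. The causes were not tested. Without the mouse as a block (no replicate block), 8 genes passed, 5 higher and 3 lower, of which 6 were among the 8 and Eomes and Nkg7 were lost. Between genotypes the labels do not say that replicate numbers pair the mice. Deviations of same-numbered mice correlated at -0.207 over 232 genes, which is 1 value with 2 mice a genotype and does not settle it; with a replicate block 0 of 227 genes were called, 1 at an unadjusted p under 0.05. Of 727 results for 43 genes (unadjusted p under 0.05, or named with a p or fold), 648 kept direction and side of the threshold, 35 lost the call, 42 gained one and 2 changed sign, 2810417H13Rik with limma (0.0095) and Ctla4 without reads of Trem2, Cx3cr1, C1qa or C1qb (-0.080). Only 8 of the 43 genes were called in the main fit, so most of the 648 were genes that stayed uncalled. The 648 thus do not measure how stable the calls were. All 35 losses fell on those 8 genes. In the 4 fits with a mouse left out, Cd4 kept its call in 3, Icos in 0 and each other called gene in 1. With a mouse left out, the log2 fold changes of Tbx21 (-0.21 to 0.32), Cxcr3 (-0.17 to 0.19) and Cxcr6 (-0.27 to 0.11) changed sign. Depth limits genes read in few cells.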

Other observations

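Gzmk was read in 52 cells of Abi3-/- mouse 1, 53 of Abi3+/+ mouse 1 and 43 of Abi3+/+ mouse 2, with 7849, 9202 and 8989 reads in the deposited tables, and in 0 of 6476 cells of Abi3-/- mouse 2, although that mouse had 43 CD8-positive T cells. Tspan32, a tetraspanin gene chosen after its values were seen, was read in 51.2% of members with Cd4, 26.5% of those without and 11.7% of CD8-positive cells. Between all members and CD8-positive cells it missed the threshold in edgeR (log2 fold change 2.32 ± 0.53 SE, adjusted p = 0.0825). It passed in DESeq2 (adjusted p = 0.000664) and limma (0.0254).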
